A study of Mus musculus with 24 samples.

Results

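Metallothioneins and the transporters that move zinc across cell membranes were followed through 7 genes, namely Mt1, Mt2, Mtf1, Slc30a1, Slc39a1, Slc39a10 and Slc39a14. The members were chosen by name, as every probe other than a control spot whose gene name in the scanner output was a member or an older synonym, and they are 7 of 19505 named genes and 13 of 41174 probes on the array. Transcripts were measured on 24 one-color Agilent whole-genome arrays of RNA from a line of mouse embryonic fibroblasts that lacks Ku70 (gene Xrcc6), a subunit of the Ku complex that joins broken DNA ends. All groups carry that deletion, the controls included, and all came from this single line, so that no cell with Ku70 enters any comparison. KBrO3 is an oxidizing agent that damages DNA bases, and bisphenol A (BPA) is a plasticizer with weak estrogenic activity.

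The arrays form 2 sets that were scanned and processed separately, and each treatment was compared only within its own set. The first set holds 15 arrays in 5 groups of 3: untreated cells labeled 4 hr, cells given 20 mM KBrO3 for 1 hr and left to repair for 3 or 23 hr (called KBrO3 4 hr and KBrO3 24 hr), and cells given 150 µM BPA for 1 hr before KBrO3, together with it, and throughout the same repair times (called co-exposure 4 hr and co-exposure 24 hr). The second set holds 9 arrays in 3 groups of 3: untreated cells with no time in their label, and cells in 150 µM BPA alone, labeled 4 and 24 hr, which the study's methods describe as an hour longer. By the study's methods, the arrays of a group are RNA from 3 biological replicates. The design text of the series speaks of untreated cells collected at both times, whereas the labels give 4 hr for the controls of the first set and no time for those of the second. By these labels, treatment and the longer time in culture cannot be told apart in the 24-hr comparisons of the first set with control, and the time of the second set's controls is not known. Comparisons of 1 set share their control arrays and are therefore not independent of each other.

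Metallothioneins are small cysteine-rich proteins that bind zinc, copper and cadmium and that also react with oxidants, which releases their zinc. Free zinc is sensed by metal-responsive transcription factor 1, the product of Mtf1, which binds metal response elements in the promoters of Mt1, Mt2 and Slc30a1. Slc30a1 encodes ZnT1, the zinc exporter of the plasma membrane, whereas the Slc39a genes encode ZIP proteins, which carry zinc into the cytosol. In fibroblasts both metallothionein genes are known to respond to metals, oxidative stress and glucocorticoids.

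The 250 bases before the annotated start are shown for the metallothionein genes and Slc30a1, because these carry the letters that the metal sensor is known to read. The sequences are those of RefSeq on GRCm38.p6, plus strand and 5′ to 3′, for chr8:94178839-94179088 (Mt1), chr8:94172368-94172617 (Mt2) and chr1:191906531-191906780 (Slc30a1), and capitals mark matches to the motifs named after them.
Mt1: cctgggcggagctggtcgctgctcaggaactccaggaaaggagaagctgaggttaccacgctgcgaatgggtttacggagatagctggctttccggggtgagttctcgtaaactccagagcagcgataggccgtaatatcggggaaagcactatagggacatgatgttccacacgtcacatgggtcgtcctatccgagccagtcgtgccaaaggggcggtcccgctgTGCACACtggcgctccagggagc
Mt2: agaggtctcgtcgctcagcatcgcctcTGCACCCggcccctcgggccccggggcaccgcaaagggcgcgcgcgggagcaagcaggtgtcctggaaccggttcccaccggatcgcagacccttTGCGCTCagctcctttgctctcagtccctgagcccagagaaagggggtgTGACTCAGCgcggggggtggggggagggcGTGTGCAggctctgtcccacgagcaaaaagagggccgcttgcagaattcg
Slc30a1: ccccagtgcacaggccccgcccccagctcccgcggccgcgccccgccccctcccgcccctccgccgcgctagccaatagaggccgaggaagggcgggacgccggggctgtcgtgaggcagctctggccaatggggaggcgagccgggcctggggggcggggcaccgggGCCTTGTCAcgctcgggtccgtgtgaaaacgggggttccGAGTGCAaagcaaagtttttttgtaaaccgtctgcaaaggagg

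The letters searched on both strands were TGCACNC or TGCGCNC, the core of the metal response element, and TGACNNNGC, the core of the antioxidant response element, where N is any base. In Mt1 the metal core TGCACAC began 23 bases before the annotated start, and the window held no antioxidant core. Letters outside the windows, the bases after the annotated starts included, were not searched for any member. In Mt2 there were 3 metal cores, TGCACCC at 223 bases, TGCGCTC at 128 bases and GTGTGCA, a match on the opposite strand, at 50 bases, together with 1 antioxidant core, TGACTCAGC, at 79 bases. Slc30a1 had 1 metal core, GAGTGCA, on the opposite strand at 43 bases, and 1 antioxidant core, GCCTTGTCA, on the opposite strand at 82 bases. The same window of Slc39a1 held 1 antioxidant core and no metal core, and those of Mtf1 and of the 2 annotated starts of Slc39a10 held neither, which says only that these letters are not in the window. No match of one motif overlapped a match of the other. Of 32851 promoters of this length, 21.4% held at least 1 metal core, 5.17% at least 2 and 1.26% at least 3, and 10.2% held an antioxidant core. Sequences were matched for 6 of the 7 members, all but Slc39a14.

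The brightest Mt1 probe lies on the plus strand at chr8:92769155-92769214 of mm7, the build named in the headers of the first set, and was printed on each array in 10 copies. It is shown because these copies give the technical error of the measurement.
Mt1 probe: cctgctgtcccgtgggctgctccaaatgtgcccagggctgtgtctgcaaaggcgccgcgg
Within an array the copies had an SD of 0.0181 to 0.0384 log2 on arrays of the first set and 0.0411 to 0.110 log2 on those of the second.

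Levels are given as log2 signals relative to the 75th percentile of the same array, so that 0 is that percentile and a difference of 1 is a doubling. They compare groups for 1 probe and not 1 gene with another. On first-set arrays 57.7% to 68.1% of the spots were well above background, and on second-set arrays 76.4% to 79.4%. The median residual SD between arrays of a group was 0.107 log2 for the first set against 0.341 log2 for the second, so the second set resolved only larger differences. Each gene is described by its brightest probe over all arrays, and these 7 probes were above background and not saturated on 24 of 24 arrays. Of the 10 fibroblast markers examined, 9 were above background on all arrays of the first set, the exception being Thy1 on 10 of 15, and all 10 on those of the second. Of the markers of other cell types, those above background on all arrays of the first and of the second set were 2 and 3 of 6 for leukocytes, 2 and 5 of 6 for epithelium, 2 and 2 of 4 for endothelium and 1 and 3 of 4 for muscle. Cd14 and Actc1 had mean signals above the 75th percentile in the controls of the first set, at 1.30 and 1.04 log2, while Ptprc, Pecam1 and Des were above background on no array. The summed linear level of the fibroblast markers was 1815 to 1929 times the 75th percentile in the controls of the first set and 1659 to 1750 in KBrO3 at 4 hr, 1313 to 1347 in co-exposure at 4 hr, 708 to 796 in KBrO3 at 24 hr and 497 to 578 in co-exposure at 24 hr. It was 703 to 809 in the controls of the second set, 686 to 815 with BPA alone at 4 hr and 574 to 685 at 24 hr. The summed level of the other lists reached at most 2.96 for leukocytes, 0.670 for epithelium, 0.216 for endothelium and 3.04 for muscle, and the muscle sum was 1.95 to 2.35 in the controls of the first set, 0.575 to 0.599 in KBrO3 at 24 hr and 0.201 to 0.227 in co-exposure at 24 hr. The part of these declines in the results was not tested. The probe for Xrcc6 was above background on 24 of 24 arrays and may lie outside the deleted part, so it checks nothing.

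KBrO3 at 4 hr was accompanied by more Mt1, Mt2, Mtf1 and Slc30a1 signal and by less Slc39a1 and Slc39a14 signal on the brightest probes, although the direction of Mt2 depended on the scaling and that of Slc39a14 on the probe. A probe was called changed at a Benjamini-Hochberg adjusted p below 0.05 in limma over the 27310 probes tested in the first set or the 31810 in the second. By that rule 6 of the 7 members changed with KBrO3 at 4 hr, 4 of them higher and 2 lower, where 72.1% of all probes were called, 36.3% higher and 35.8% lower. The members' median difference was 0.24 log2 and that of all probes 0.06. KBrO3 at 24 hr called 7 of 7, with Slc30a1 and Slc39a10 higher and Mt1, Mt2, Mtf1, Slc39a1 and Slc39a14 lower, against 66.2% of all probes, 32.1% higher and 34% lower, and the medians were −0.42 and −0.02. Since most probes on the array moved, the shares of members called are close to what any gene would show, and it is the direction and size of each gene that the following sections describe.

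Co-exposure at 4 hr called the same 6 members in the same directions as KBrO3 at that time, and 78.6% of all probes, 41.6% higher and 37% lower. The medians were 0.87 log2 for the members and 0.08 for all probes. Co-exposure at 24 hr called 6 members, namely Mt1, Mt2 and Slc30a1 higher and Mtf1, Slc39a1 and Slc39a14 lower, and 69.9% of all probes, 32.9% higher and 37% lower. BPA alone at 4 hr called 2 members, Mt2 and Slc39a14, both higher, with 4.24% of all probes called, 2.83% higher and 1.41% lower. BPA alone at 24 hr called 0 members by limma, 4 of which had an unadjusted p below 0.05, and 3.4% of all probes. The study's own thresholds, a Bonferroni-adjusted p below 0.01 with a fold change beyond 1.5, kept 3 members with KBrO3 at 4 hr (28.8% of all probes), 2 at 24 hr (16.8%), 5 with co-exposure at 4 hr (32.6%), 3 at 24 hr (20.8%) and 0 with BPA alone at 4 hr (0.066%) or 24 hr (0.0189%).

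**Figure D1:**
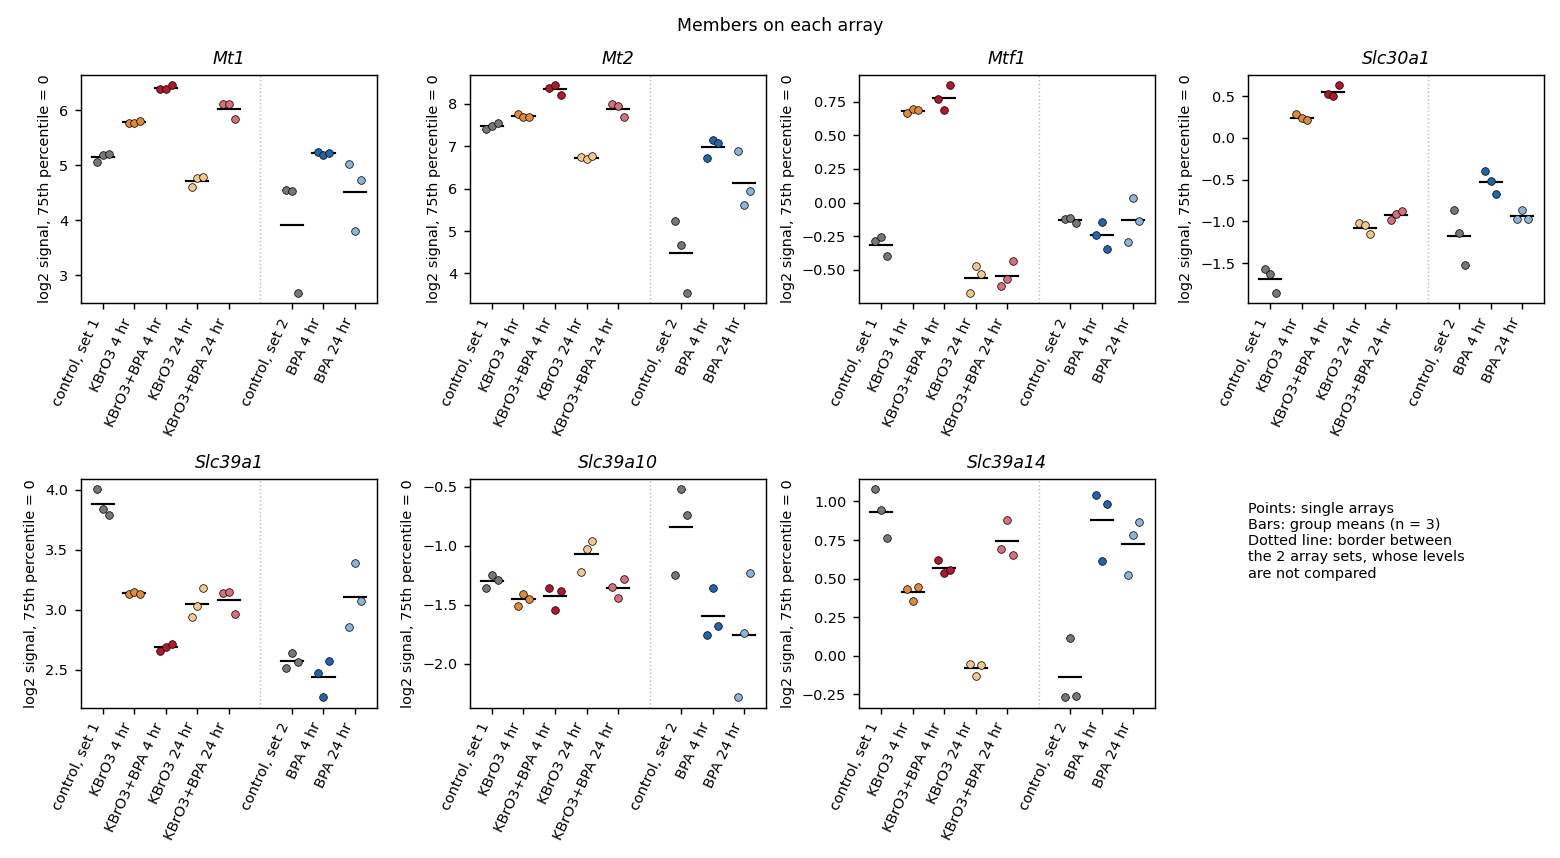
Log2 signal of each member on every array, relative to the array's 75th percentile, with 1 point per array, bars at group means (n = 3) and groups along the horizontal axis, the first set on the left and the second on the right. The 3 arrays of a group lie close together in the first set, whereas in the second the controls of Mt1 range from 2.68 to 4.55.

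Mt1, a ubiquitous metallothionein, was higher with KBrO3 at 4 hr and lower at 24 hr, as Mt2 and the brightest Mtf1 probe were. The 3 control arrays read 5.06, 5.18 and 5.19, those of KBrO3 at 4 hr read 5.76, 5.76 and 5.81, and those of KBrO3 at 24 hr read 4.60, 4.78 and 4.78. Co-exposure read 6.39, 6.38 and 6.46 at 4 hr and 6.10, 6.11 and 5.85 at 24 hr. Each treated group lay wholly outside the range of the controls, with KBrO3 at 24 hr below and the rest above. Mt1 rose 1.55-fold with KBrO3 at 4 hr (0.63 ± 0.074 log2, SE, n = 3, limma adjusted p = 6.4e-06) and 2.40-fold with co-exposure (1.26 log2, adjusted p = 7.9e-09). At 24 hr it was 1.34-fold lower with KBrO3 alone (−0.42 log2, adjusted p = 0.00028) and 1.84-fold higher with co-exposure (0.88 log2, adjusted p = 4.3e-07). The rise with KBrO3 at 4 hr was smaller after quantile normalization (0.18 log2, adjusted p = 0.021), and the fall at 24 hr lost its call when arrays were scaled to their medians (−0.28 log2, adjusted p = 0.051) or corrected with normexp (−0.07 log2, adjusted p = 0.72). These values are of bulk RNA, in which fewer cells of a type and less RNA per cell cannot be told apart.

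Mt2, its close paralog and neighbor on the chromosome, had the brightest member probe. The controls read 7.41, 7.48 and 7.54, KBrO3 at 4 hr 7.75, 7.68 and 7.70, and KBrO3 at 24 hr 6.73, 6.70 and 6.77. Co-exposure read 8.37, 8.45 and 8.22 at 4 hr and 8.01, 7.95 and 7.70 at 24 hr. As for Mt1, KBrO3 at 24 hr lay below all controls and the other treated groups above them, although the margin of KBrO3 at 4 hr was small. That difference was 1.18-fold (0.24 ± 0.078 log2, SE, n = 3, adjusted p = 0.017) and its direction depended on the scaling, since quantile normalization gave −0.11 log2 (adjusted p = 0.041). The call was also lost with each array's median (adjusted p = 0.052) and on leaving out control replicate 1 (adjusted p = 0.063) or KBrO3 replicate 1 (adjusted p = 0.054). With co-exposure Mt2 rose 1.83-fold at 4 hr (0.87 log2, adjusted p = 5.0e-07) and 1.33-fold at 24 hr (0.41 log2, adjusted p = 0.00053), and with KBrO3 alone at 24 hr it was 1.67-fold lower (−0.74 log2, adjusted p = 3.9e-06), or −0.38 log2 after normexp (adjusted p = 0.082) and −0.22 log2 after quantile normalization (adjusted p = 0.00077). The co-exposure rise at 24 hr was larger with the other scalings, at 0.72 to 0.73 log2. Over the 15 arrays of the first set Mt1 and Mt2 had a Pearson r of 0.959, and over the 9 of the second 0.877, values that describe arrays sharing treatments and controls.

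Mtf1, the zinc sensor, was high at 4 hr and low at 24 hr on its brightest probe, with or without BPA, whereas a second probe moved otherwise and is described with the other probes. The controls read −0.29, −0.26 and −0.39, KBrO3 at 4 hr 0.66, 0.69 and 0.69, and co-exposure at 4 hr 0.77, 0.69 and 0.87. At 24 hr the readings were −0.67, −0.47 and −0.53 with KBrO3 and −0.62, −0.57 and −0.44 with co-exposure. Both 4-hr groups were above every control and both 24-hr groups below. The rise was 1.99-fold with KBrO3 (0.99 ± 0.068 log2, SE, n = 3, adjusted p = 4.0e-08) and 2.13-fold with co-exposure (1.09 log2, adjusted p = 1.4e-08). The falls at 24 hr were small, −0.25 log2 (adjusted p = 0.0068) and −0.23 log2 (adjusted p = 0.0093), and with each array scaled to its median they became −0.10 (adjusted p = 0.48) and 0.09 log2 (adjusted p = 0.51). The first of them was also not called with slide as a random block (adjusted p = 0.095).

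Slc30a1, encoding the zinc exporter ZnT1, showed the largest change from control of the members in the first set. Its controls read −1.57, −1.62 and −1.85, KBrO3 at 4 hr 0.28, 0.24 and 0.21, and co-exposure at 4 hr 0.53, 0.50 and 0.63. At 24 hr KBrO3 read −1.02, −1.05 and −1.15 and co-exposure −0.98, −0.91 and −0.87. All 4 treated groups lay above the controls without overlap, highest at 4 hr. Slc30a1 rose 3.80-fold with KBrO3 at 4 hr (1.93 ± 0.071 log2, SE, n = 3, adjusted p = 1.4e-10) and 4.72-fold with co-exposure (2.24 log2, adjusted p = 2.9e-11), which normexp put lower, at 1.27 and 1.56 log2. With normexp Mt1 reached 1.57 log2 with co-exposure at 4 hr. At 24 hr the rise was 1.53-fold (0.61 log2, adjusted p = 9.1e-06) and 1.69-fold (0.76 log2, adjusted p = 1.1e-06), and neither 24-hr call remained after normexp, which gave 0.05 log2 (adjusted p = 0.82) and 0.22 log2 (adjusted p = 0.31).

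Slc39a1, encoding the zinc importer ZIP1, was lower in all 4 treated groups of the first set. The controls read 4.00, 3.84 and 3.79, against 3.13, 3.15 and 3.13 with KBrO3 at 4 hr and 2.66, 2.69 and 2.71 with co-exposure at 4 hr. At 24 hr it read 2.94, 3.04 and 3.18 with KBrO3 and 3.14, 3.15 and 2.96 with co-exposure. No treated array reached the lowest control. The fall was 1.67-fold (−0.74 ± 0.072 log2, SE, n = 3, adjusted p = 1.2e-06) and 2.28-fold (−1.19 log2, adjusted p = 1.1e-08) at 4 hr, and 1.78-fold (−0.83 log2, adjusted p = 7.1e-07) and 1.74-fold (−0.80 log2, adjusted p = 8.4e-07) at 24 hr. Of these calls the first missed the threshold after normexp (−0.46 log2, adjusted p = 0.0503), which gave −0.49 log2 for both 24-hr falls.

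Slc39a14, encoding ZIP14, which carries zinc and also iron, and Slc39a10, encoding ZIP10, were the remaining importers. For Slc39a14 the controls read 1.08, 0.94 and 0.77, KBrO3 0.43, 0.36 and 0.45 at 4 hr and −0.05, −0.13 and −0.06 at 24 hr, and co-exposure 0.62, 0.54 and 0.56 at 4 hr and 0.69, 0.88 and 0.65 at 24 hr. All KBrO3 arrays were below all controls, and co-exposure at 24 hr overlapped them. Slc39a14 fell 1.43-fold with KBrO3 at 4 hr (−0.52 ± 0.078 log2, SE, n = 3, adjusted p = 5.9e-05) and 2.01-fold at 24 hr (−1.01 log2, adjusted p = 2.3e-07). With co-exposure it fell 1.28-fold at 4 hr (−0.36 log2, adjusted p = 0.0011), a call lost with normexp (−0.25 log2, adjusted p = 0.095), while the difference at 24 hr, −0.19 log2 (adjusted p = 0.046), was no longer called after leaving out any of 13 of the 15 arrays and turned to 0.13 log2 when arrays were scaled to their medians (adjusted p = 0.29). A second Slc39a14 probe moved the opposite way, and its values are given with the other probes.

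For Slc39a10 the controls read −1.36, −1.25 and −1.29, KBrO3 −1.51, −1.41 and −1.45 at 4 hr and −1.22, −1.03 and −0.96 at 24 hr, and co-exposure −1.36, −1.54 and −1.38 at 4 hr and −1.35, −1.44 and −1.28 at 24 hr. The KBrO3 arrays were just below the controls at 4 hr and just above them at 24 hr. The single call against control was KBrO3 at 24 hr (0.23 ± 0.074 log2, SE, n = 3, adjusted p = 0.018), which became −0.17 log2 with normexp (adjusted p = 0.40). It was lost with only the groups compared (adjusted p = 0.056), with slide as a random block (adjusted p = 0.090) and on leaving out control replicate 1 (adjusted p = 0.064) or KBrO3 replicate 2 (0.059) or 3 (0.078). KBrO3 at 4 hr gave −0.16 log2, with a 95% interval of −0.32 to 0.00, and the co-exposures −0.13 and −0.06 log2. KBrO3 at 4 hr was called with only the groups compared (adjusted p = 0.024), and co-exposure at 4 hr with each array's median (−0.27 log2, adjusted p = 0.046), while normexp gave −0.43 and −0.42 log2 for these groups, neither of them called.

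Arrays of the first set that shared a slide also shared most of a treatment, and the consensus correlation of arrays on a slide was 0.634, against 0.115 in the second set. Only KBrO3 at 4 hr could be set against a control on its own slide, and there the differences were 0.58 log2 for Mt1, 0.17 for Mt2, 1.08 for Mtf1, 2.10 for Slc30a1, −0.66 for Slc39a1, −0.17 for Slc39a10 and −0.36 for Slc39a14. With slide as a fixed block that of Mt2 was not called (adjusted p = 0.089). For the other comparisons of the first set with control, no control lay on a slide of the treated arrays, and slide and treatment cannot be told apart within slides.

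**Figure D2:**
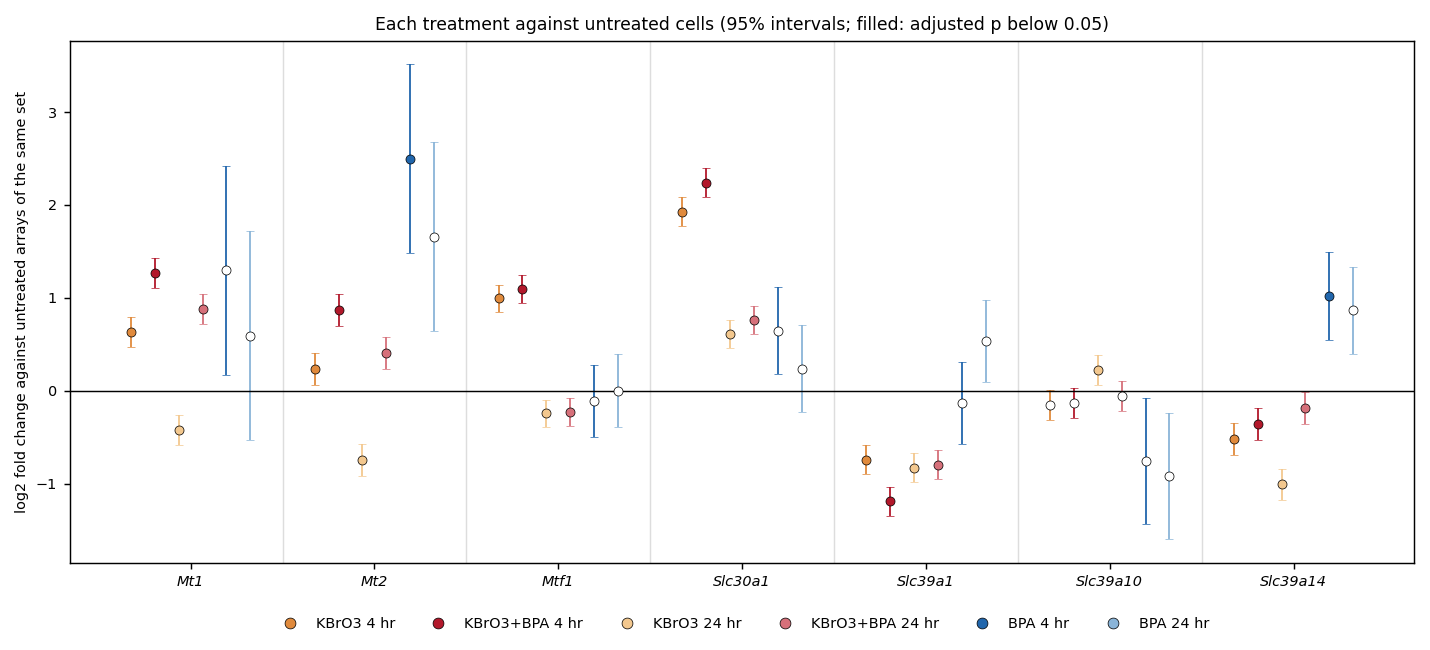
Log2 difference from the control arrays of the same set for each member under KBrO3, co-exposure and BPA alone at 4 and 24 hr, with bars for the 95% interval and filled points for called differences. Slc30a1 reaches 2.24 with co-exposure at 4 hr, Slc39a1 lies below 0 in all 4 comparisons of the first set, and the intervals of the second set are wider.

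BPA alone was measured in the second set, where Mt2 and Slc39a14 rose at 4 hr. For Mt2 the controls read 5.24, 4.67 and 3.54, BPA at 4 hr 6.72, 7.15 and 7.07, and BPA at 24 hr 6.88, 5.61 and 5.94. Every BPA array was above every control, even though the controls spread over more than a log2 unit. The rise at 4 hr was 5.65-fold (2.50 ± 0.45 log2, SE, n = 3, adjusted p = 0.017) and ranged from 2.03 to 2.88 log2 over fits that each omitted 1 array. The call was lost on leaving out control replicate 2 (adjusted p = 0.052) or BPA replicate 1 (0.054), 2 (0.077) or 3 (0.084), with normexp (2.55 log2, adjusted p = 0.23) and with slide as a fixed block, where the difference was 1.65 log2 (adjusted p = 0.23). At 24 hr the difference of 1.66 log2, with a 95% interval of 0.64 to 2.67, had an adjusted p of 0.086, and on the slides that held both groups it was 2.21 and 2.07 log2.

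For Slc39a14 the controls read −0.27, 0.11 and −0.26, BPA at 4 hr 1.04, 0.61 and 0.98, and BPA at 24 hr 0.52, 0.78 and 0.87. The BPA arrays were again all above the controls. The rise was 2.03-fold at 4 hr (1.02 ± 0.21 log2, SE, n = 3, adjusted p = 0.030) and the difference at 24 hr was 0.86 log2 (adjusted p = 0.060). The 4-hr call was the weaker of the pair, being lost under 5 of the 12 other settings and on leaving out control replicate 1 (adjusted p = 0.074) or 3 (0.095) or BPA replicate 1 (0.11), 2 (0.053) or 3 (0.14). With slide as a random block the 24-hr difference had an adjusted p of 0.04996.

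Mt1, Mtf1, Slc30a1, Slc39a1 and Slc39a10 were not called with BPA alone. For Mt1 the controls read 4.55, 4.53 and 2.68, BPA at 4 hr 5.24, 5.19 and 5.22, and BPA at 24 hr 5.02, 3.80 and 4.73. The 4-hr arrays exceeded all controls, but control replicate 3 stood far below its fellows, and the difference of 1.30 ± 0.50 log2 (SE, n = 3, adjusted p = 0.20) was 0.68 log2 without it. At 24 hr the difference was 0.59 log2 (adjusted p = 0.58), and −0.03 log2 without that control. The control in question shares a slide with the lowest of the 24-hr arrays, and on the 2 slides that held both groups the 24-hr difference was 0.49 and 1.12 log2.

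The same control array was also the lowest of the 3 for Mt2 and for Slc30a1. Slc30a1 read −0.86, −1.14 and −1.53 in the controls, −0.40, −0.52 and −0.67 with BPA at 4 hr and −0.97, −0.87 and −0.98 at 24 hr, so that BPA at 4 hr lay above the controls (0.65 log2, 95% interval 0.18 to 1.12, adjusted p = 0.13) and BPA at 24 hr within them (0.24 log2). Slc39a10 read −1.25, −0.52 and −0.74 in the controls, −1.76, −1.36 and −1.68 at 4 hr and −2.28, −1.74 and −1.24 at 24 hr, giving −0.76 log2 (adjusted p = 0.21) and −0.92 log2 (adjusted p = 0.15). Slc39a1 read 2.52, 2.64 and 2.56 in the controls, 2.47, 2.27 and 2.57 at 4 hr and 2.86, 3.39 and 3.07 at 24 hr. Its 24-hr arrays were above the controls (0.53 log2, 95% interval 0.09 to 0.98, adjusted p = 0.19). Mtf1 differed by −0.11 log2 (95% interval −0.50 to 0.28) and 0.00 log2 (−0.39 to 0.39).

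BPA given with KBrO3 was associated with more Mt1 and Mt2 transcript than KBrO3 alone at both times. At 4 hr, 4 members differed between co-exposure and KBrO3, with Mt1, Mt2 and Slc30a1 higher and Slc39a1 lower, where 57.8% of all probes were called, 29.2% higher and 28.6% lower, and 0 members met the study's thresholds (4.99% of probes). At 24 hr, 4 members differed, with Mt1, Mt2 and Slc39a14 higher and Slc39a10 lower, against 46.7% of all probes, 23.1% higher and 23.7% lower, and 3 members met the study's thresholds (5.8% of probes). Mt1 was 1.55-fold higher with BPA at 4 hr (0.63 ± 0.074 log2, SE, n = 3, adjusted p = 2.4e-05) and 2.46-fold higher at 24 hr (1.30 log2, adjusted p = 6.1e-08). Mt2 was 1.55-fold higher (0.63 log2, adjusted p = 3.6e-05) and 2.22-fold higher (1.15 log2, adjusted p = 2.6e-07). In both genes and at both times all 3 co-exposed arrays exceeded all 3 KBrO3 arrays. These Mt1 and Mt2 calls held under each other scaling and filter tried and with slide as a random block, and on the slide that held both groups at 24 hr the differences were 1.33 and 1.24 log2. At 4 hr all KBrO3 arrays were on one slide and all co-exposed arrays on another, so that no difference within a slide could be had and slide and added BPA cannot be told apart.

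Among the transporters, Slc30a1 was 1.24-fold higher with BPA at 4 hr (0.31 log2, adjusted p = 0.0027), a call lost with each array's median (adjusted p = 0.17), with normexp (0.45) and with slide as a random block (0.16), and at 24 hr the difference was 0.15 log2 (95% interval −0.01 to 0.30), a difference that was called with each array's median (0.32 log2, adjusted p = 0.021) and with slide as a fixed (0.15 log2, adjusted p = 0.049) or random block (adjusted p = 0.040). Slc39a1 was 1.37-fold lower at 4 hr (−0.45 log2, adjusted p = 0.00026), a call lost with normexp (−0.43 log2, adjusted p = 0.16) and not made on its second probe (−0.27 log2, adjusted p = 0.092), and its 24-hr difference was 0.03 log2 (95% interval −0.12 to 0.19). That second probe lies on the opposite strand by the headers of the first set. Slc39a14 was 1.77-fold higher at 24 hr (0.82 log2, adjusted p = 4.0e-06), with all 3 co-exposed arrays above all 3 KBrO3 arrays, and 0.16 log2 apart at 4 hr (adjusted p = 0.095). Slc39a10 was 1.22-fold lower at 24 hr (−0.29 log2, adjusted p = 0.0073), a call lost with each array's median (−0.12 log2, adjusted p = 0.44), with normexp (adjusted p = 0.74) and with only the groups compared (adjusted p = 0.061). Mtf1 differed by 0.10 log2 (95% interval −0.05 to 0.25) at 4 hr and 0.02 log2 (−0.13 to 0.16) at 24 hr, so any difference in the brightest Mtf1 probe was small.

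The difference between co-exposure and KBrO3 was itself compared between the times. It changed for 5 members, 4 of them toward higher signal at 24 hr and 1 toward lower, where 54.3% of all probes were called, 25.5% higher and 28.7% lower, and 0 members met the study's thresholds (3.84% of probes). It was larger at 24 hr by 0.67 ± 0.10 log2 (SE, adjusted p = 0.00027) for Mt1, 0.52 log2 (adjusted p = 0.0021) for Mt2 and 0.66 log2 (adjusted p = 0.00041) for Slc39a14. For Slc39a1 the change of 0.48 log2 (adjusted p = 0.0020) was from −0.45 at 4 hr to 0.03 at 24 hr. For Slc39a10 the difference went from 0.03 at 4 hr to −0.29 at 24 hr, a change of −0.31 log2 (adjusted p = 0.024) that was −0.0036 log2 when arrays were scaled to their medians and was no longer called on leaving out any of 6 of the 15 arrays. Mtf1 gave −0.08 log2 and Slc30a1 −0.16 log2, neither of them called, although their second probes were called lower, at −0.39 log2 (adjusted p = 0.00074) and −0.54 log2 (adjusted p = 0.0057). With normexp the calls were lost for Mt1 (0.64 log2, adjusted p = 0.12), Mt2 (0.46 log2, 0.35), Slc39a1 (0.43 log2, 0.40) and Slc39a10 (−0.20 log2, 0.83), the change for Mt2 was 0.18 log2 after quantile normalization (adjusted p = 0.029), and the second probes gave −0.13 log2 for Mt1, −0.013 for Slc39a1 (neither called) and −0.29 for Slc39a14 (adjusted p = 0.0036). These values include the 4-hr difference, in which slide and added BPA cannot be told apart.

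**Figure D3:**
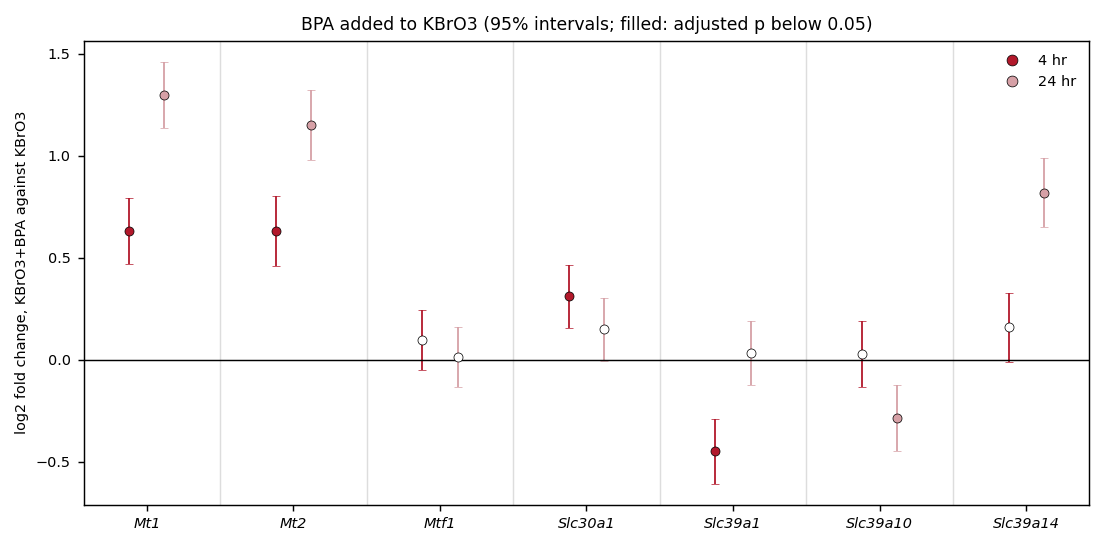
Log2 difference between co-exposed and KBrO3 arrays for each member at 4 and 24 hr, with bars for the 95% interval and filled points for called differences. Mt1 moves from 0.63 to 1.30 and Mt2 from 0.63 to 1.15, while Mtf1 lies near 0 at both times.

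From 4 to 24 hr after KBrO3 alone most members fell on their brightest probes. The arrays of these times were on different slides, so slide and time cannot be told apart here. The test called 6, with Mt1, Mt2, Mtf1, Slc30a1 and Slc39a14 lower and Slc39a10 higher, against 75.3% of all probes, 33% higher and 42.3% lower, and 4 met the study's thresholds (26.7% of probes). The log2 differences were −1.06 for Mt1, −0.98 for Mt2, −1.24 for Mtf1, −1.32 for Slc30a1, −0.49 for Slc39a14 and 0.38 for Slc39a10. With quantile normalization the difference was −0.48 log2 for Mt1 (adjusted p = 1.5e-05) and −0.11 log2 for Mt2 (adjusted p = 0.037). Slc39a1 differed by −0.09 log2 (adjusted p = 0.29), which quantile normalization turned to 0.23 log2 (adjusted p = 0.0045). The Slc39a10 call was lost with normexp (adjusted p = 0.26), and the second probes of Mtf1 and Slc39a14 went the other way, at 0.33 and 0.46 log2.

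After co-exposure 5 members changed from 4 to 24 hr, with Mt1, Mt2, Mtf1 and Slc30a1 lower and Slc39a1 higher, against 81.2% of all probes, 32.8% higher and 48.4% lower, and 2 met the study's thresholds (30.1% of probes). No slide held co-exposed arrays of both times, so no difference within a slide could be had. A fit with slide as a fixed block, linked through KBrO3 arrays at 24 hr on shared slides, also called 5 members. Mtf1 fell by 1.32 and Slc30a1 by 1.48 on the log2 scale, while Mt1 fell by 0.39 (adjusted p = 0.00040) and Mt2 by 0.46 (adjusted p = 0.00016). The direction of the last pair is not settled on the brightest probes, because scaling to each array's median gave 0.07 log2 for Mt1 and quantile normalization 0.07 log2 for Mt2, neither of them called. The second Mt1 probe was called lower, at −1.17 log2. Slc39a1 rose by 0.40 log2 (adjusted p = 0.00028), a call lost with normexp (adjusted p = 0.090), and its second probe, placed on the opposite strand, gave −0.08 log2 (adjusted p = 0.60). Slc39a10 and Slc39a14 were called higher with each array's median (0.53 log2, adjusted p = 0.00099, and 0.63 log2, adjusted p = 0.00012) and with quantile normalization (0.18 and 0.21 log2). With BPA alone limma called 0 members between 4 and 24 hr, 1 of which, Slc39a1, had an unadjusted p below 0.05 (0.67 log2), where it called 3.79% of all probes, and 0 met the study's thresholds (0.0377% of probes). Mt2 differed by −0.84 log2 (adjusted p = 0.33) and Mt1 by −0.70 log2 (adjusted p = 0.46), values that were 0.49 and 0.13 log2 with slide as a fixed block.

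Ordered by mean signal within the first set, Mt1 ran from co-exposure at 4 hr through co-exposure at 24 hr, KBrO3 at 4 hr and control to KBrO3 at 24 hr, and each neighboring pair differed. Mt2 had the same order, but co-exposure at 24 hr and KBrO3 at 4 hr did not differ beyond their spread. These orders are of the 75th-percentile scaling, since the co-exposures did not differ for Mt1 or Mt2 with each array's median (0.07 and −0.00065 log2) or quantile normalization (−0.0037 and 0.07 log2), KBrO3 at 4 hr was below control for Mt2 with quantile normalization (−0.11 log2), and control and KBrO3 at 24 hr were not told apart for Mt1 with the median (−0.28 log2) or normexp (−0.07 log2). Mtf1 and Slc30a1 were highest in the 4-hr groups. Neighbors that did not differ were the pair of treatments at each time for Mtf1, the pair at 24 hr for Slc30a1, KBrO3 at 4 hr and both 24-hr groups for Slc39a1, all groups but KBrO3 at 24 hr for Slc39a10, and both co-exposures and KBrO3 at 4 hr for Slc39a14. In the second set no neighboring pair of groups differed for any member.

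Further probes were present for 5 members, and these did not always follow the brightest. The second Mt1 probe (chr8:92768988-92769047, mm7, plus strand) moved in the same direction as the first in all comparisons with control, by 0.85 log2 with KBrO3 at 4 hr, −0.19 at 24 hr, 2.46 with co-exposure at 4 hr and 1.29 at 24 hr. It put the difference with added BPA at 1.61 log2 at 4 hr and 1.49 at 24 hr, so it did not show the larger difference at 24 hr that the first probe did, the change being −0.13 log2 (95% interval −0.26 to 0.00, adjusted p = 0.081). Both Slc30a1 probes rose alike with KBrO3 at 4 hr (1.93 and 1.94 log2), while at 24 hr the second rose more, by 1.29 log2 with KBrO3 and 1.49 with co-exposure. The second was called with BPA alone at 4 hr as well (1.26 ± 0.29 log2, SE, n = 3, adjusted p = 0.047), and its difference with added BPA went from 0.73 log2 at 4 hr to 0.19 at 24 hr, a change of −0.54 log2 (adjusted p = 0.0057). The second Slc39a1 probe, which the headers of the first set place on the opposite strand, fell by 0.48, 0.54, 0.75 and 0.83 log2 in the comparisons of the first set with control, first for KBrO3 at 4 hr and 24 hr and then for co-exposure. By that placement it may not read Slc39a1 transcript, so it is a weak check on the brightest probe.

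The probes of Slc39a14 and Mtf1 disagreed. The second Slc39a14 probe (chr14:64950977-64951036, against chr14:64948082-64948141 for the first, mm7, minus strand) read −1.79, −1.81 and −1.64 in the controls, −1.61, −1.66 and −1.66 with KBrO3 at 4 hr and −1.19, −1.18 and −1.17 at 24 hr. With co-exposure it read −0.19, −0.14 and −0.17 at 4 hr and 0.06, 0.02 and −0.04 at 24 hr. All treated groups but KBrO3 at 4 hr lay above the controls, by 0.57 log2 with KBrO3 at 24 hr (adjusted p = 5.0e-07), 1.58 with co-exposure at 4 hr (adjusted p = 1.8e-11) and 1.76 with co-exposure at 24 hr (adjusted p = 1.4e-11), where the first probe was lower.

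With added BPA both Slc39a14 probes were called higher at 24 hr, the second by 1.19 log2, while at 4 hr the second was called (1.48 log2) and the first was not (0.16 log2, adjusted p = 0.095). With BPA alone the second gave 1.49 log2 (adjusted p = 0.068) and 1.39 log2 (adjusted p = 0.093), neither of them called. From 4 to 24 hr of co-exposure they differed by 0.17 log2 on the first (adjusted p = 0.061) and 0.18 log2 on the second (adjusted p = 0.0042). The second Mtf1 probe (chr4:124249624-124249683, against chr4:124293768-124293827, mm7, plus strand) rose by 0.14 log2 with KBrO3 at 4 hr (adjusted p = 0.021) and 0.47 log2 at 24 hr (adjusted p = 3.7e-06), and differed by −0.04 log2 with co-exposure at 4 hr (adjusted p = 0.44) and −0.10 log2 at 24 hr. It was lower with added BPA, by −0.19 log2 (4 hr, adjusted p = 0.0072) and −0.57 log2 (24 hr, adjusted p = 2.0e-06). The remaining Mtf1 probe was too dim to be tested in the first set. The directions given for Slc39a14 and Mtf1 therefore hold for the probe named.

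**Figure D4:**
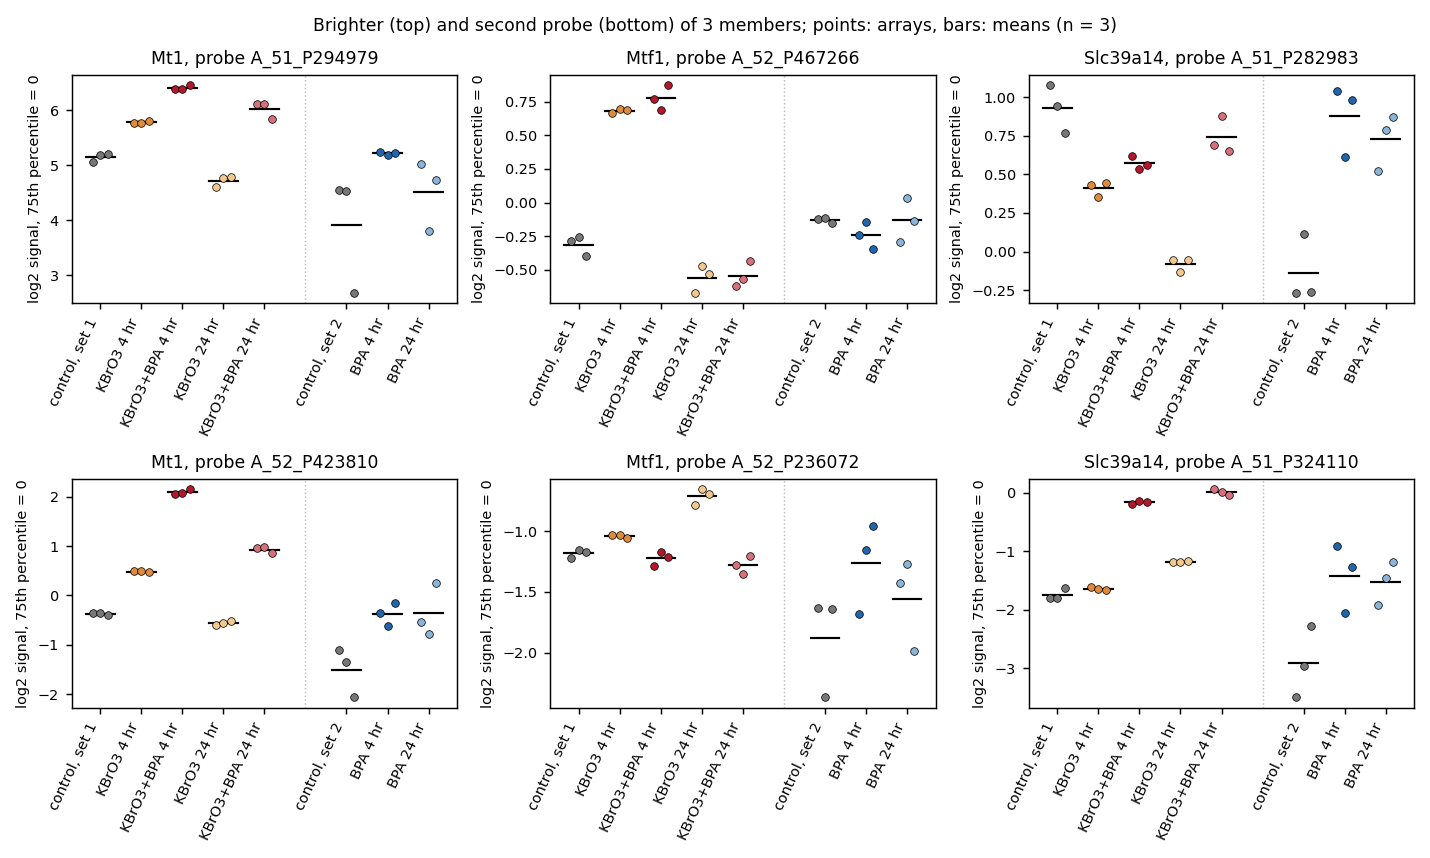
Log2 signal relative to the array's 75th percentile for the brightest probe (top row) and the second probe (bottom row) of Mt1, Mtf1 and Slc39a14, with 1 point per array, a bar at the mean of 3 arrays and a dotted line between the sets. Both Mt1 probes give every treated group of the first set the same sign against control, whereas co-exposure at 24 hr overlaps the controls on the first Slc39a14 probe and lies between −0.04 and 0.06, above all controls, on the second.

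Other genes of metal handling were followed through lists of the remaining metallothioneins (2 genes), ZIP importers (11), ZnT transporters (9) and copper handling (8). With KBrO3 at 4 hr, 1 of 2 metallothioneins was higher and 0 lower, 4 of the 9 ZIP importers tested were higher and 3 lower, 2 of the 5 ZnT genes tested were higher and 1 lower, and 3 of 8 copper genes were higher and 2 lower. With co-exposure at 4 hr the counts were 0 higher and 1 lower, 3 and 4, 4 and 0, and 4 and 4. At 24 hr they were 0 and 2, 3 and 3, 3 and 0, and 0 and 3 with KBrO3, and 0 and 1, 3 and 4, 2 and 0, and 2 and 1 with co-exposure. The counts depended on the scaling. Copper handling with KBrO3 at 24 hr had 1 higher and 1 lower with each array's median, quantile normalization and normexp alike, and with co-exposure at 4 hr 3 and 1 with normexp. The ZIP importers with KBrO3 at 24 hr had 4 and 1 with median or quantile scaling, and with co-exposure at 24 hr 5 and 3 with the median and 4 and 2 with quantile normalization. The ZnT genes higher with co-exposure were 2 at 4 hr and 4 at 24 hr with the median and 3 and 1 with normexp, and those higher with KBrO3 at 24 hr were 1 with normexp. The metallothioneins lower with co-exposure at 4 hr were 2 under each of these scalings. With BPA alone, Slc39a13 and Slc31a1 were called at 4 hr, and Slc39a8 and Slc39a11 at 24 hr, none of them with normexp. Calls in both directions stood among the ZIP and copper genes, and the shares of the lists stand beside the large shares of all probes given above. The ZIP median with KBrO3 at 4 hr was −0.06 log2 and that of all probes 0.06.

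Slc39a13, encoding ZIP13 of the secretory pathway, was lower in 5 of the 6 comparisons with control, by −1.35 log2 with KBrO3 and −2.19 with co-exposure at 4 hr, −0.15 and −1.36 at 24 hr, and −1.54 with BPA alone at 4 hr (adjusted p = 0.0081), although the value of −0.15 was 0.16 log2 and not called with normexp. Slc39a8, encoding ZIP8, which carries zinc and manganese, was lower in 4, at −0.56, −1.24, −1.55 and −0.34 log2 in the order KBrO3 and co-exposure at 4 hr and then at 24 hr, and 1.40 log2 higher with BPA alone at 24 hr (adjusted p = 0.0092). The last of the falls was not called with median or quantile scaling, nor the rise with normexp. Slc39a6, encoding ZIP6, was higher in 4, at 1.14, 1.19, 0.45 and 0.34 log2 in the same order, under each scaling. Slc30a4, encoding the vesicular transporter ZnT4, rose by 1.81 log2 with KBrO3 and 2.17 with co-exposure at 4 hr, and Slc30a5, encoding ZnT5, by 0.63 and 0.78 log2.

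Among the copper genes, Slc31a1, encoding the copper importer CTR1, rose by 1.05 log2 with KBrO3 and 1.38 with co-exposure at 4 hr, by 0.34 with co-exposure at 24 hr and by 1.10 with BPA alone at 4 hr (adjusted p = 0.019, not called with normexp). Slc31a2, encoding the related CTR2, fell by 2.88 and 3.13 log2 at 4 hr and by 0.52 and 0.73 at 24 hr, in the order KBrO3 and co-exposure. Atp7b, encoding a copper-exporting ATPase, was 1.58 log2 higher with co-exposure at 4 hr, a call not made with normexp. Of the remaining metallothioneins, Mt3 was lower with co-exposure at 4 hr (−1.34 log2) and Mt4 higher with KBrO3 at 4 hr (0.57 log2), the latter turning to −0.51 log2 and not called with normexp. Unlike Mt1 and Mt2, both were lower with co-exposure than with KBrO3 at 4 hr, at −1.03 and −0.76 log2, of which normexp called that of Mt3 (−0.85 log2) and not that of Mt4 (−0.44 log2, adjusted p = 0.58).

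**Figure D5:**
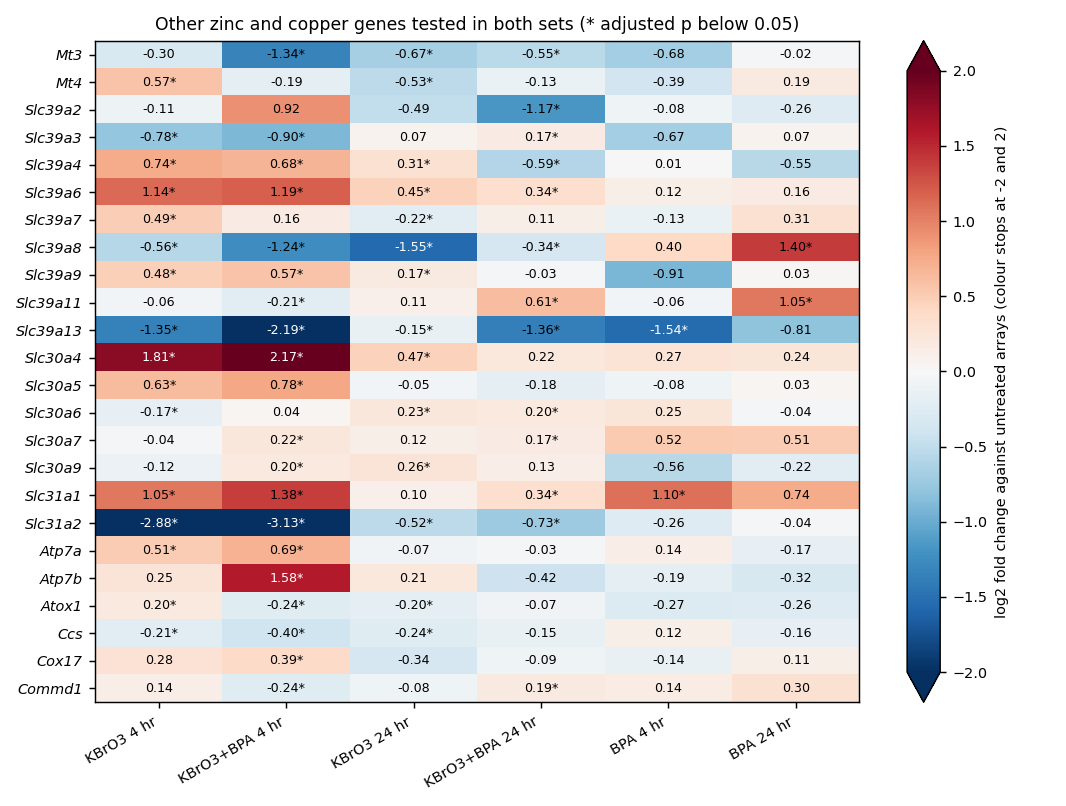
Log2 difference from control of the other metallothionein, zinc and copper genes tested in both sets, with genes in rows, comparisons in columns, color for the size and direction (no deeper beyond 2 in either direction) and an asterisk for a called difference. Slc31a2 reaches −3.13 and Slc30a4 2.17 with co-exposure at 4 hr, and both directions occur among the ZIP genes.

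The genes whose pattern over the 15 arrays of the first set was most like each member were listed among 14520 genes, as a description of arrays that share treatments, controls and slides. For Mt1 these were Tnfaip2 (Pearson r = 0.985), Slc1a5 (0.974), Ss18l2 (0.966), Mt2 (0.959) and Gadd45a (0.957), with r over the 9 arrays of the second set of 0.716, 0.284, 0.210, 0.877 and 0.572. For Mt2 they were Nr6a1 (0.969), Tnfaip2 (0.966) and Rprd1a (0.959), with −0.109, 0.863 and 0.276 in the second set. Only Mt2, Tnfaip2 and Gadd45a kept an r over 0.5 among these pairs. For Slc30a1 they were Rsbn1 (0.997), Rwdd4a (0.996) and Ube2f (0.996), with 0.766, 0.680 and 0.708 in the second set. For Mtf1 they were Prr14l, Acsl1 and Zfand5 (each 0.994), with 0.604, 0.275 and −0.379. For Slc39a1 they were Golga2 (0.989), Dsel (0.987) and Fam171a2 (0.985), with 0.484, −0.790 and −0.327. For Slc39a10 they were Cd2ap (0.918), Phf12 (0.890) and Arhgef3 (0.888), with 0.379, 0.646 and −0.0020. For Slc39a14 they were Phyhd1 (0.957), Smc1b (0.953) and Isoc2b (0.952), with 0.516, 0.667 and 0.082. Among the members, r between Mtf1 and Slc30a1 was 0.893 over the first set but −0.253 over the second, and r between Mt1 and Slc30a1 was 0.714 and 0.817.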

How the data were processed

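RNA of 24 cultures was labeled with Cy3 and hybridized to Agilent whole mouse genome arrays. The authors deposited fluorescence intensity values per spot, as written by Agilent Feature Extraction 9.5.3.1 for the first set (header build mm7) and 12.0.0.7 for the second (mm9), which detrends within an array and does not normalize between arrays. The table of values deposited with the series holds the same intensity for 1080432 of 1080432 values.

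Processed signals were taken as log2 and centred on the 75th percentile of the array, control spots left aside. Outlier spots were left out, and the spots of a probe were averaged. Each set was fitted separately over all its arrays with limma 3.58.1 in R 4.3.3 (lmFit and eBayes), and two-sided p-values were adjusted by Benjamini and Hochberg over all probes tested. Probes were tested if at least 1 group of the set had them well above background on all its arrays. There were 12 comparisons. Each member was described by its brightest probe. From the gene lists, those called in 1 direction in at least 4 of the 6 comparisons with control were named, and the pair with the largest called changes from control in each list. The members and lists were chosen with earlier results of these data known. The number of arrays limits the precision. The p-values rest on the spread between 3 cultures of a single line within each group. That spread was pooled over the groups of a set and drawn by limma toward that of other probes. Where all arrays of a group shared a slide, the spread of that group holds no variation between slides. Replicate numbers were not used to pair samples across groups in the main fit.

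Promoter sequences came from RefSeq (GRCm38.p6) and were searched with Python 3.11.15, and figures were drawn with matplotlib 3.10.9. The alternatives were quantile and median scaling, normexp background correction with an offset of 50 (on mean signals in the first set and median signals in the second), the dim-probe filter, outlier flags, error weights, the groups fitted, replicate and slide blocks, other probes, the study's thresholds, and leaving out each array.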

Additional observations from a re-analysis of the deposited data

Results flagged for a closer look

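A difference between times under the same treatment was tested directly and called for several members. After KBrO3 alone, the 24-hr signal differed from the 4-hr signal by −1.06 log2 for Mt1, −0.98 for Mt2, −1.24 for Mtf1, −1.32 for Slc30a1, 0.38 for Slc39a10 and −0.49 for Slc39a14. After co-exposure it differed by −0.39 log2 for Mt1, −0.46 for Mt2, −1.32 for Mtf1, −1.48 for Slc30a1 and 0.40 for Slc39a1. Under either treatment no slide held arrays of both times. The difference between co-exposure and KBrO3 changed from 4 to 24 hr by 0.67 log2 for Mt1, 0.52 for Mt2, 0.48 for Slc39a1, −0.31 for Slc39a10 and 0.66 for Slc39a14. Several of these directions were not settled. After KBrO3 the second probes of Mtf1 and Slc39a14 gave 0.33 and 0.46 log2, both called. After co-exposure Mt1 gave 0.072 log2 with each array's median, Mt2 0.069 with quantile normalization and the second Slc39a1 probe −0.076, none of them called. The second Mt1 probe gave −1.17 log2 and was called. For the change in the difference, the second probes gave −0.13 log2 for Mt1, −0.013 for Slc39a1 and −0.29 for Slc39a14. Single arrays were not tested as outliers.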

How the results depend on the processing

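Of 84 values, 1 for each member and comparison, the call and direction were as given in 84 with the deposited series table, with probes above background on every array, with outlier flags ignored and with error weights, in 83 without the filter on dim probes, 78 with only the groups compared, 77 with quantile normalization, 78 with slide as a random block, 69 with each array's median and 63 with normexp, whose shift of the median of all probes in the comparisons with control of the first set was −0.45 to −0.52 log2. With slide as a fixed block 38 of 42 values kept theirs. Direction turned with quantile normalization for Mt2 with KBrO3 at 4 hr (−0.11), Slc39a1 between the times of KBrO3 (0.23) and Mt2 between those of co-exposure (0.069), with each array's median for Mtf1 (0.088) and Slc39a14 (0.13) with co-exposure at 24 hr and Mt1 between its times (0.072), and with normexp for Slc39a10 with KBrO3 at 24 hr (−0.17). A value called under neither setting was given no direction.

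With the other probe, direction turned for the change in the effect of added BPA in Mt1 (−0.13), Slc39a1 (−0.013) and Slc39a14 (−0.29), for Mtf1 with KBrO3 at 24 hr (0.47), co-exposure at 4 hr (−0.043), added BPA at 4 hr (−0.19) and 24 hr (−0.57) and between the times of KBrO3 (0.33), for Slc39a1 between the times of co-exposure (−0.076), and for Slc39a14 with KBrO3 at 4 hr (0.10) and 24 hr (0.57), co-exposure at 4 hr (1.58) and 24 hr (1.76) and between the times of KBrO3 (0.46).

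The number of members called fell by the study's thresholds from 6 to 3 (KBrO3 at 4 hr), 7 to 2 (KBrO3 at 24 hr), 6 to 3 (co-exposure at 24 hr), 4 to 0 (added BPA at 4 hr), 5 to 2 (co-exposure between times), 5 to 0 (change in the effect of added BPA) and 2 to 0 (BPA alone at 4 hr). With normexp it fell to 3 for KBrO3 at 24 hr, 2 for added BPA at 4 hr, 2 for co-exposure between times, 1 for the change in the effect of added BPA and 0 for BPA alone at 4 hr. For BPA alone at 4 hr it was 1 with each array's median, 1 with only the groups compared, 0 with slide as a fixed block and 1 with the replicate block, and for BPA alone at 24 hr it was 1 with slide as a random block. The cause was not tested. Leaving out each array in turn gave 5 to 7 members with KBrO3 at 4 hr, 6 to 7 at 24 hr, 6 with co-exposure at 4 hr, 5 to 6 at 24 hr, 4 to 5 for added BPA at either time and for its change, 6 and 5 to 6 between the times of KBrO3 and of co-exposure, 0 to 2 with BPA alone at 4 hr, and 0 at 24 hr and between its times. Same-numbered arrays had residual correlations of −0.21 to 0.11 over 30 pairs in the first set (mean −0.029). In the second set they were −0.38 to 0.65 over 9 pairs (mean 0.0020), which cannot exclude pairing. The replicate block changed 2 of 84 calls, Slc39a14 with co-exposure at 24 hr (adjusted p = 0.056) and with BPA alone at 4 hr (adjusted p = 0.082). The second set, with the larger residual SD, limits what can be said of BPA alone.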
